A study of Mus musculus with 120 samples.

Results

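The replication-dependent histone genes are the multicopy genes for the core histones H2A, H2B, H3 and H4. They were taken here as every row, present in both deposited count tables, whose gene name is H2ac, H2bc, H3c or H4c followed by digits only. The rule found 51 of the 55487 genes shared by the tables, which were 15 H2A, 14 H2B, 12 H3 and 10 H4 genes. Of the 51, 41 lie on chromosome 13 and 10 on chromosome 3, and 50 are annotated as coding while H2ac14 is a pseudogene. A further 9 core histone rows that carry only older names such as Hist1h2br did not match the rule and were not members.

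The libraries came from the immunological niche (IN), a microporous polycaprolactone scaffold placed under the back skin, and were made from ribosomal RNA-depleted total RNA of the whole scaffold. All mice were female. The 120 samples fell into 23 from NOR/LtJ mice, a strain that resists diabetes and shares the diabetogenic H2g7 haplotype, 39 from NOD/ShiLtJ nonprogressors, which kept their glucose control, and 58 from NOD/ShiLtJ progressors, which became hyperglycemic. Scaffolds were implanted at 4 weeks of age in both strains, and explants began at 6 weeks. Samples of NOR mice and of some nonprogressors were sequenced every 4 weeks between 6 and 22 weeks of age. The other nonprogressors, in the second sequencing batch described below, were sequenced only at 6 and 14 weeks. A further 6 nonprogressor samples are labelled by days since implantation (31, 38 or 108) and not by age. Progressor samples were sequenced at 6 weeks of age, at 7, 5, 3 and 1 weeks before hyperglycemia and at onset. Each mouse gave several samples, and progressor status was assigned from later glucose readings. Each removed scaffold was replaced, so that a scaffold taken at 6 weeks was an original implant and later ones could be replacements, with a time in the tissue that the labels do not give. Age, scaffold and surgery history and nearness to disease cannot be told apart in any comparison with 6 weeks.

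Sequencing was done in 2 batches, which were also 2 cohorts of mice, 74 samples on a NovaSeq 6000 and 46 on a NovaSeq X. Batch 1 held all NOR samples, nonprogressor mice 1 to 4 and progressor mice 1 to 5, and batch 2 held nonprogressor mice 5 to 11 and progressor mice 6 to 10. All 8 samples taken 7 weeks before onset were sequenced in batch 2, including those of progressor mice 1 to 4, whose other samples were in batch 1. Every comparison of groups or times below was therefore made within a batch.

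Core histone proteins package DNA into nucleosomes, and a dividing cell must make a full new set while it copies its genome. The replication-dependent genes are switched on together in S phase, have no introns in their main transcripts, and give mRNAs that end in a conserved stem-loop in place of a poly(A) tail. Stem-loop-binding protein, made by Slbp, holds that end and governs the mRNA's processing, translation and decay, and transcript levels drop when DNA synthesis stops. Bulk histone mRNA is thus commonly read as a sign of cells in S phase, as Mki67, the gene for the proliferation antigen Ki-67, is for cycling cells. Some members can also end in a poly(A) tail in resting or differentiated cells. In bulk tissue, fewer dividing cells and less histone mRNA per cell cannot be told apart.

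The stem-loop sequences are shown because they mark which transcripts have the histone type of end, and because they differ between families. Reference transcripts of 32 of the 50 coding members held a 16-base stem-loop, placed 21 to 58 bases after the coding part with a median of 31. Annotation ended fewer than 30 bases after the coding part in 13 of the 50 coding members, so that no stem-loop found there says nothing of the gene. Among 21901 other coding genes, 14 held such a stem-loop, or 0.0639%. In the lines below, written 5′ to 3′ from GRCm38 as the DNA letters of the sense strand, capitals mark the loop and each name is an example of the members that share the sequence.

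H2ac18: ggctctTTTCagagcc
H2ac20: ggctctTTTTagagcc
H3c3: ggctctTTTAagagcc
H4c8: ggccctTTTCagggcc
H4c9: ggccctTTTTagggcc
H4c2: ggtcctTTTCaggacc

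The first was held by 18 members, the H2ac20 form by 1 and the H3c3 form by 5. The H4c8, H4c9 and H4c2 forms were held by 4, 2 and 2 members, and none of the H4 forms was found in an H2A, H2B or H3 member.

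Promoters of 45 members, from 250 bases before to 50 bases after the start, were matched in RefSeq (GRCm38.p6). On either strand, CCAAT was present in 39 of the 45 (86.7%) against 37.8% of 26980 other promoters, and TATAAA in 26 (57.8%) against 14.1%. All 14 H2A, 12 H2B and 10 H3 promoters held CCAAT, whereas 3 of 9 H4 promoters did. The octamer ATTTGCAT was present in 12 members (26.7%), 6 of 14 H2A and 6 of 12 H2B, against 1.71% of other promoters, and in no H3 or H4 promoter. In 7 cases an H2A and an H2B gene stand head to head and their promoter windows overlap, so that motifs there are counted for both. The stretch between the starts is printed for the pairs H2ac8 and H2bc8 (chr13:23571221-23571399) and H2ac12 and H2bc12 (chr13:22035644-22035820), because the genes of each pair are compared below. Both are on the plus strand of GRCm38.p6, and capitals mark the 3 motifs on either strand.

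H2ac8 and H2bc8: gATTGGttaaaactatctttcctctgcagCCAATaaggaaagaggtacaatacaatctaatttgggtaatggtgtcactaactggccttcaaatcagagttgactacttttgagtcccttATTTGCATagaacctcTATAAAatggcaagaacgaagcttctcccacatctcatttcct
H2ac12 and H2bc12: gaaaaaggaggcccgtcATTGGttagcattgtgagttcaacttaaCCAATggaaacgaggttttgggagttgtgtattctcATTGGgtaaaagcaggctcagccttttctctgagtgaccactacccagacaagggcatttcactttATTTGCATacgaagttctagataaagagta

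Member sequences overlap, which bears on every value for a single gene. A median of 52.3% of the 50-base stretches of a member's transcript also occurred in another gene, and 49.5% in another member, and 49 of the 51 shared some with a member. The exceptions were H2bc18, whose shared stretches lay in a gene that is no member, and H2bc21 (chr3:96221119-96223738, 2620 bases), which shared 0% with any gene. H2ac18 (chr3:96245497-96246082) and H2ac19 (chr3:96239749-96240276) share a run of 528 bases, the whole of H2ac19, and H3c14 (chr3:96246685-96248509) and H3c15 (chr3:96238108-96239127) share 666 bases. Levels of H2ac18, H2ac19, H3c13, H3c14 and H3c15 are uncertain one by one, since the estimated counts divide shared reads among copies, and their sums are given as well. Other genes named below shared more of their stretches than H3c15 (63.5%), such as H2ac12 (90.7%), H2ac13 (90.1%) and H3c10 (93.9%). H2ac7 and H2ac12 share a run of 360 bases. Single values of such genes are uncertain as well, and only the family sums cover them.

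Library totals were 4722396 to 56185434 counts in batch 1 and 29029239 to 43880986 in batch 2, of which the members took 370 to 37978 and 1676 to 27311 counts. Levels below are CPM, counts scaled to a common library size by TMM, and a member is called where its edgeR adjusted p, over all genes tested, was under 0.05. Some libraries stood apart. In batch 2, the onset library of progressor mouse 9 and the library of mouse 10 at 1 week before onset had 47.5 and 63.7 CPM over all members, and 119 and 235 CPM of Rn7sk, the short 7SK RNA, against 1629 to 5506 in the other 44 batch 2 libraries. Short coding genes outside the histones were also low there, down to a median of -1.71 on the log2 scale from the batch median, whereas Mki67, at 50.4 and 35.7 CPM, was not outside the range of the batch. A pair of libraries, the onset library of progressor mouse 7 in batch 2 and that of progressor mouse 2 at 3 weeks before onset in batch 1, had 5894 and 5191 CPM over 12 hair follicle and epidermis genes, against at most 869 elsewhere. They also had 641 and 1031 CPM of members and 109 and 116 CPM of Mki67. The 18-week library of NOR mouse 5 was dominated by reads of a ribosomal RNA gene. Leaving it out changed no count of called members for nonprogressors against NOR mice or for NOR mice over age. The difference in age change between these groups was not refitted without it. Results that rest on these libraries are given with and without them where both were computed, and their part in the results was not otherwise tested. The batch difference, the F tests over late times, the family sums and the gene lists were not refitted without the pair high in hair follicle genes. Correlations with Mki67 over all samples were not repeated without that pair either. Slopes and correlations over all batch 1 samples were not repeated without the NOR library.

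Over all samples of a batch, the summed level of the 51 genes was lower in batch 2, and mean Mki67 was about the same. The batches held unlike groups and times, since NOR samples and those labelled by days were in batch 1 only. The members summed to 625 ± 149 CPM (SD, n = 74) in batch 1 and 359 ± 135 CPM (n = 46) in batch 2, with ranges of 328 to 1031 and 47.5 to 658 CPM, and Mki67 was at 69.6 ± 22.9 and 69.3 ± 25.7 CPM. In groups held by both batches, mean Mki67 at 6 weeks was 108 CPM (batch 1) and 102 CPM (batch 2) in progressors. In nonprogressors it was 98.9 and 103 CPM at 6 weeks, and 79.9 and 62.8 CPM at 14 weeks. In progressors at 5, 3 and 1 weeks before onset it was 66.3 and 60.7, 72.7 and 57.4, and 68.1 and 49.1 CPM. At onset it was 56.7 and 59.2 CPM. The families did not shift alike. H2A summed to 147 ± 33.7 CPM in batch 1 and 42.8 ± 17.0 CPM in batch 2, and H2B to 112 ± 23.6 and 113 ± 35.1 CPM. H3 summed to 229 ± 70.2 and 120 ± 54.7 CPM, and H4 to 136 ± 30.4 and 82.7 ± 29.98 CPM. The median share of H2A in all member counts was thus 23.4% in batch 1 and 11.8% in batch 2, while that of H2B was 18.0% and 31.8%.

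**Figure D1:**
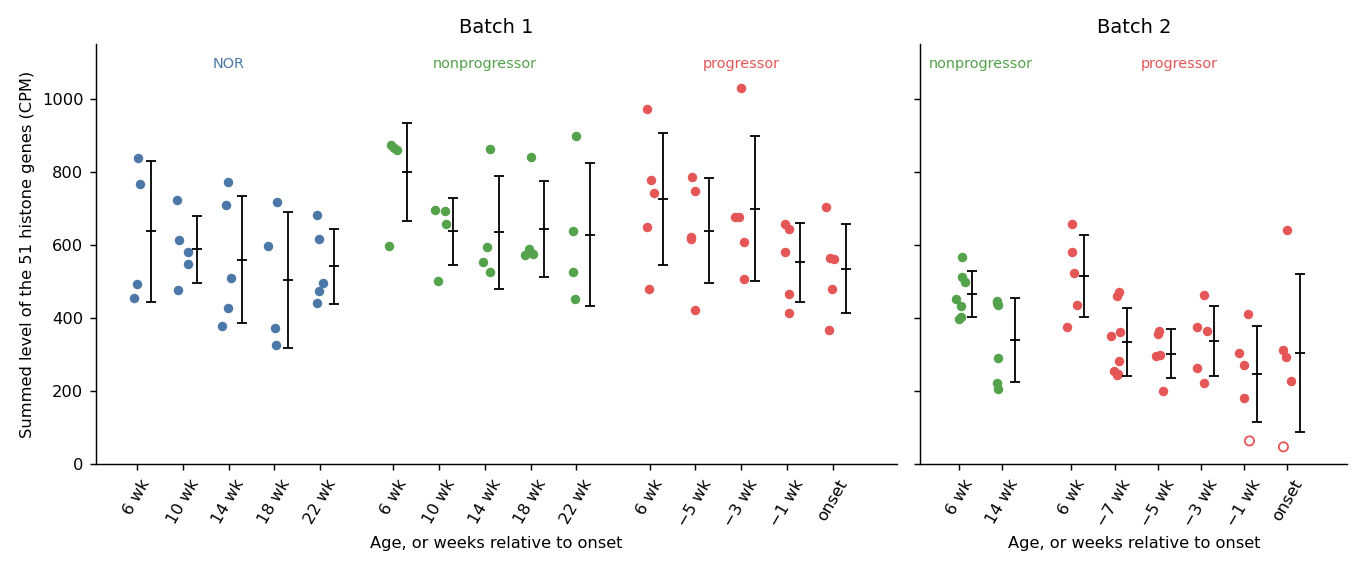
Summed level of the 51 histone genes (CPM, vertical axis) in each sample of a group and time (horizontal axis), by batch; points are samples, the bar beside them the mean and SD, and open points the 2 libraries low in Rn7sk. Batch 1 samples lie between 328 and 1031 CPM and batch 2 samples between 47.5 and 658 CPM. The 6-week means of progressors and nonprogressors lie above their later means in both batches, and so does that of NOR mice in batch 1.

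Levels of different members were compared per kilobase (kb) of transcript. In batch 1 the highest of each family were H2ac18 for H2A (113.6 CPM per kb), H2bc4 for H2B (39.7), H3c13 for H3 (88.0) and H4c8 for H4 (71.0). In batch 2 they were H2ac18 (14.7 CPM per kb), H2bc18 (40.2), H3c2 (40.6) and H4c8 (22.1). H2A and H4 thus kept the same leading gene. H2ac18 stood well above the next H2A gene in batch 1, H2ac12 at 43.0 CPM per kb, and close to the next in batch 2, H2ac20 at 13.7. These ranks depend on the annotated length, which differs in how far it runs past the coding part. H2bc18 is annotated with 381 bases, the coding part alone, and H2bc4 with 1156.

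The gene with most counts of its family was the same in both batches in H2A and H2B, but not in H3 and H4. H2ac18 gave 45.2% of H2A counts in batch 1 (66.6 ± 12.2 CPM) and 20.1% in batch 2 (8.63 ± 3.42 CPM). H2ac12 followed in batch 1 (17.4 ± 6.96 CPM) and H2ac20 in batch 2 (7.10 ± 2.57 CPM). H2bc4 (chr13:23684199-23692908, 1156 bases), in whose reference transcript no stem-loop was found, gave 40.9% of H2B counts in batch 1 (45.9 ± 8.78 CPM) and 30.4% in batch 2 (34.4 ± 8.43 CPM), followed by H2bc8 (15.9 ± 4.08 CPM) and H2bc18 (15.3 ± 5.79 CPM). In H3 the highest were H3c15 (49.4 ± 12.7 CPM, 21.5% of the family) and H3c13 (43.0 ± 14.9 CPM, 18.7%) in batch 1 and H3c2 (25.2 ± 14.1 CPM, 20.9%) and H3c6 (19.9 ± 9.36 CPM, 16.6%) in batch 2. In H4, whose genes encode the same protein, they were H4c8 (33.4 ± 7.97 CPM, 24.6%) and H4c3 (21.1 ± 6.00 CPM, 15.5%) in batch 1 and H4c4 (14.9 ± 5.87 CPM, 18.1%) and H4c14 (13.02 ± 4.41 CPM, 15.7%) in batch 2.

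The batch difference itself was tested on NOD mice at the times that both batches held, with the biopsies of a mouse summed to 1 library. Of 48 members tested, 43 were called (89.6%), 8 higher and 35 lower in batch 2, while 63.7% of all 23514 genes were called, 32.9% higher and 30.8% lower. The median log2 difference was -0.65 over the members and 0.04 over all genes. H2bc1, H2ac1 and H2ac14 had too few counts to be tested here or in any other comparison. In this test the cohort of mice changed together with the batch, and the values of progressor mice 1 to 4, sequenced in both batches, are given further on. The platform and any change in library preparation or indexing cannot be told apart.

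H2A showed the largest loss in batch 2, with 11 of 13 genes tested lower, 1 higher and a median of -1.20, and its summed counts differed by -1.87 ± 0.08 (log2, SE). H2ac7 (chr13:23574381-23574952) had the most negative value of all members, -4.82 ± 0.16, from a mean of 9.65 CPM to 0.378. H2ac18 was at 38.2 to 116 CPM (median 67.5) in batch 1 and 0.644 to 17.9 CPM (median 8.47) in batch 2, so that no sample of one batch overlapped the other, and its log2 difference was -2.97 ± 0.11. Its copy H2ac19 was listed at 0 in all 74 batch 1 libraries and at 1.20 to 8.17 CPM (mean 4.50) in batch 2. Set against 3 counts in the median batch 1 library, that mean was at least 44.0-fold higher and the lowest batch 2 library at least 11.7-fold higher. With H2ac19 placed at this bound the median over the members was also -0.65. The copies together were at 66.6 CPM in batch 1 and 13.1 CPM in batch 2, a log2 difference of -2.37 ± 0.09, so the sum of the copies was also lower.

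H2B was divided, with 6 of 13 genes higher and 5 lower in batch 2, and its summed counts differed by -0.08 ± 0.07. H2bc18 had the smallest p among the higher H2B genes (0.63 ± 0.09), and H2bc12 was at 8.93 CPM in batch 1 and 14.9 CPM in batch 2. H2bc21, the member with no shared sequence, was at -0.12 ± 0.08 and was not called (edgeR adjusted p = 0.196). The head-to-head genes also parted. H2ac12 was at -1.85 and its partner H2bc12 at 0.61, H2ac11 at -1.20 and H2bc11 at 0.57, and H2ac13 at -0.82 and H2bc13 at 0.42. In the pair printed above, H2ac8 was at -2.10 ± 0.10 and H2bc8 at -0.50, both lower. The H2A gene had the more negative value in all 6 pairs with enough counts.

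H3 had 10 of 12 genes lower and 1 higher in batch 2, and its summed counts differed by -1.06 ± 0.10. H3c7 was at 11.9 CPM in batch 1 and 1.21 CPM in batch 2 (log2 difference -3.40 ± 0.09). H3c14 was higher, from a mean of 1.64 CPM with 32 of 74 libraries at 0 to 7.28 CPM (2.12 ± 0.29), while its copies H3c13 (43.0 and 15.1 CPM) and H3c15 (49.4 and 16.7 CPM) were lower. These 3 genes summed to 94.0 CPM in batch 1 and 39.1 CPM in batch 2 (-1.41 ± 0.08). All 9 called genes of the 10 H4 genes were lower, with a family sum at -0.75 ± 0.07.

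**Figure D2:**
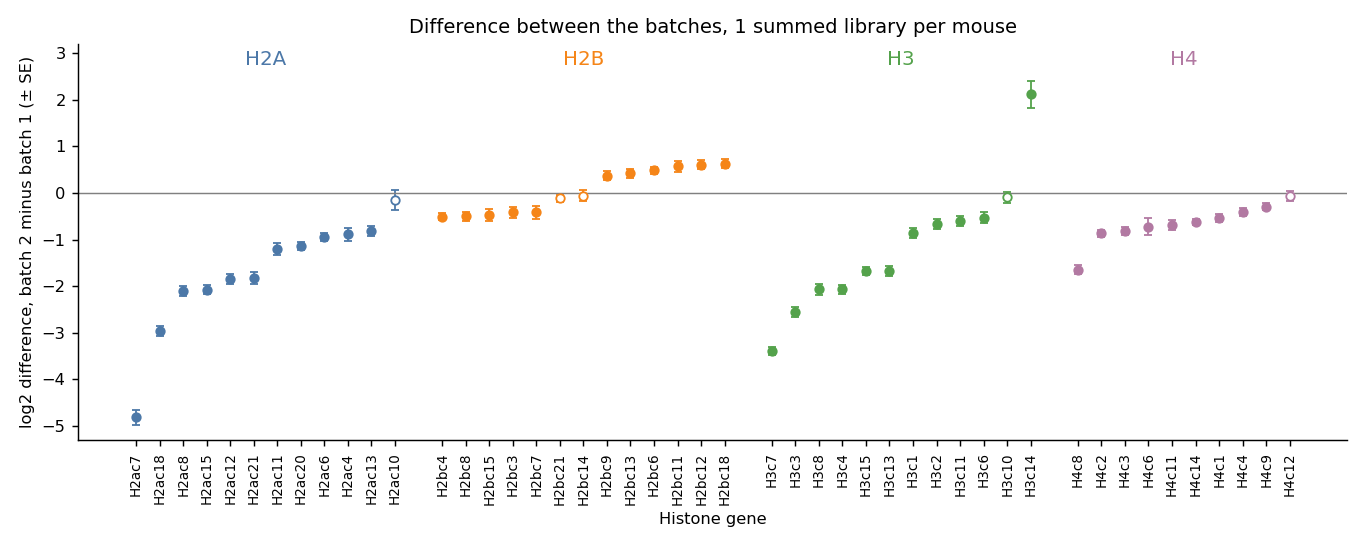
Log2 difference between batch 2 and batch 1 (vertical axis, error bars SE) for each member tested except H2ac19, ordered within family; filled points were called. H2A values run from -4.82 for H2ac7 upward, H2B genes lie on both sides of 0, and H3c14 stands alone above the other H3 genes at 2.12.

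Members of either length, and with or without a stem-loop, were mostly lower in batch 2. The median was -0.70 for members of at most 700 bases (28 of 32 called) and -0.58 for longer ones (15 of 16 called), against -0.16 and -0.05 for other short and long coding genes. It was -0.70 for members with a stem-loop (31 of 32 called) and -0.53 for those in which none was found (12 of 16 called). Among related genes, 8 of 11 replication-independent histone genes were lower and 2 higher, and 4 of 5 linker H1 genes were lower. The call count was 43 without the pair of libraries low in Rn7sk (63.6% of all genes) and 30 of 48 with 6-week samples alone, where 60.6% of all genes were called.

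Mice 1 to 4 gave the most direct view of the batch, since the same animals were sequenced in both, though at different times and from different scaffolds. At 7 weeks before onset, in batch 2, H2ac18 was at 10.4, 9.68, 5.21 and 8.35 CPM. At 5 weeks before onset, in batch 1, it was at 72.2, 46.4, 86.9 and 79.0 CPM in the same mice. H2ac19 was at 6.62, 3.10, 8.17 and 4.43 CPM in batch 2 and listed at 0 in batch 1. The summed members were at 459, 350, 363 and 283 CPM and later at 422 to 787 CPM. The mice of the other cohort at the same time, 6, 7, 9 and 10, had 6.51 to 11.8 CPM of H2ac18 and 245, 254, 472 and 247 CPM of all members. For H2ac18, H2ac19, H3c7 and H2ac7, values of mice 1 to 4 in batch 2 did not overlap those of the same mice at 5 weeks before onset. These genes had large differences in the batch test, which held batch 1 samples of these mice, so their separation adds no independent support. The H2A sum, H3c14 and H2bc4 did not overlap either. The H2B sum (94.2 to 137 and 91.0 to 139 CPM), H4c4 (10.4 to 20.1 and 15.2 to 28.5 CPM), the H3 and H4 sums and all members did overlap.

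**Figure D3:**
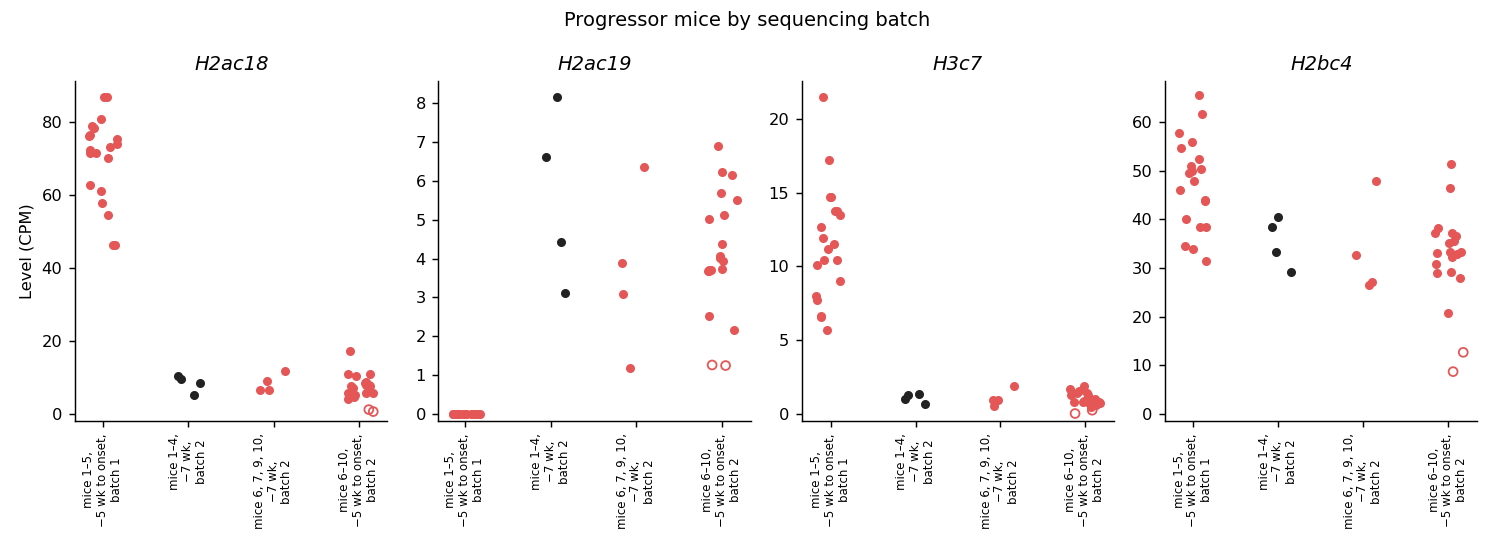
Level (CPM, vertical axis of each panel) of H2ac18, H2ac19, H3c7 and H2bc4 in progressor samples by mice, time and batch; black points are mice 1 to 4 sequenced in batch 2, and open points the libraries low in Rn7sk. For the first 3 genes the black points lie with the other batch 2 samples and apart from the same mice in batch 1, whereas for H2bc4 the black points, at 29.1 to 40.4 CPM, overlap batch 1 samples of other times, though not the same mice at 5 weeks before onset (44.1 to 65.6 CPM).

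Levels of H2ac8, an H2A gene of 704 bases (chr13:23570517-23571220), are given at 7 and 5 weeks before onset as 1 example. The gene was chosen with earlier results of these data known. These are CPM with no batch correction, whereas the paper corrected its combined data for batch, and the part of batch was not tested. H2ac8 was at 0.596 ± 0.323 CPM at 7 weeks before onset (n = 8, all batch 2, 0.185 to 1.22). At 5 weeks before onset it was at 0.777 ± 0.134 CPM in batch 2 (n = 5, 0.544 to 0.885) and 2.85 ± 0.978 CPM in batch 1 (n = 5, 1.26 to 3.81). The batch 2 ranges of the 2 times overlapped, and no sample at 7 weeks reached the lowest batch 1 sample at 5 weeks.

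Strain was compared in batch 1 with 1 summed library per mouse, 4 nonprogressors against 5 NOR mice. The mix of times was unequal, since NOR mouse 3 had no 6-week sample and NOR mouse 2 no 18-week sample. All 4 nonprogressors had every age. In NOR mice the summed members averaged 637 CPM at 6 weeks and 504 CPM at 18 weeks (n = 4 each). The part of the unequal times in the differences below was not tested. Of 47 members tested, 1 was called, against 6.29% of 22975 genes and 2.67% in its direction. It was H2bc4, higher in nonprogressors by 0.23 ± 0.06 (log2, edgeR adjusted p = 0.0491). Values of 44 of the 47 members were above 0, with a median of 0.25 against 0.00 over all genes, and 10 had an unadjusted p under 0.05, as did 21.5% of all genes. Family sums were at 0.28 ± 0.11 for H2A, 0.19 ± 0.09 for H2B, 0.27 ± 0.14 for H3 and 0.09 ± 0.10 for H4. Mki67 was at 0.35 ± 0.11 (adjusted p = 0.11). DESeq2 called 7 members, the 6-week samples alone gave 0, and the call of H2bc4 was lost without NOR mouse 2, 3, 4 or 5 or nonprogressor mouse 1, 3 or 4.

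Progressors and nonprogressors did not differ in any member at 6 weeks by edgeR's test. In batch 1, 0 of 47 members were called, against 0.0521% of all genes, and in batch 2, 0 of 47, against 0%. None had an unadjusted p under 0.05 in either batch, where 7.88% and 1.6% of all genes did, and DESeq2 called 0 in both. Summed members in batch 1 were at 973, 479, 743, 778 and 650 CPM in the progressors and 598, 864, 861 and 875 CPM in the nonprogressors, which overlapped. In batch 2 they were at 658, 376, 436, 524 and 581 CPM in the progressors and 396 to 566 CPM (median 451, n = 7) in the nonprogressors, which also overlapped. The median log2 difference was -0.20 in batch 1 and 0.13 in batch 2, and that of H2ac8 was -0.28 ± 0.34 and 0.37 ± 0.37.

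Summed member levels after 6 weeks of age were lower than at 6 weeks in most mice. Calls were most numerous in the batch 2 progressors, where the share of all genes called was also highest (34.1%). That share was 29.1% in batch 2 nonprogressors, 24.7% in batch 1 progressors, 12.1% in batch 1 nonprogressors and 0.0946% in NOR mice. Outside the batch 2 progressors, the share of members called lower was not above that of all genes called lower. Comparing each mouse's later mean with its own 6-week sample, all members together were lower in 5 of 5 batch 2 progressors, 4 of 5 batch 1 progressors, 5 of 6 batch 2 nonprogressors, 3 of 4 batch 1 nonprogressors and 2 of 4 NOR mice. Without the library of mouse 2 high in hair follicle genes the batch 1 progressors were lower in 5 of 5, and leaving out the other libraries that stood apart changed none of these counts. Mki67 was lower in 5 of 5, 5 of 5, 6 of 6, 4 of 4 and 3 of 4 of the same mice. In the tests that follow, biopsies of 1 mouse enter as separate samples although they are not independent, and the fits with a term for each mouse are given where they differ.

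In batch 2 progressors, 25 of 47 members were called when the mean of the 4 later times, from 5 weeks before onset to onset, was set against 6 weeks, 24 lower and 1 higher. Over all genes 34.1% were called, 17.1% lower and 17% higher, and the median was -0.90 over members and 0.04 over all genes. Among H2A genes 8 of 13 fell, among H2B genes 10 of 13, among H3 genes 5 of 12 and among H4 genes 1 of 9. Family sums were at -0.91 ± 0.29, -0.68 ± 0.21, -0.95 ± 0.32 and -0.69 ± 0.32 (log2, SE), and H4c6 could not be tested there for low counts. The summed members were at 515 ± 112 CPM at 6 weeks, 334 ± 92.7 at 7 weeks before onset (n = 8), and 303 ± 66.1, 337 ± 95.9, 246 ± 132 and 304 ± 215 at 5, 3 and 1 weeks before onset and onset (n = 5 each). Without the pair low in Rn7sk the last 2 means were 292 and 368 CPM (n = 4 each), and without the library high in hair follicle genes the onset mean was 220.0 CPM.

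H3c3 (chr13:23744973-23745602) had the smallest p. It was at 4.05, 1.58, 2.30, 3.37 and 3.70 CPM at 6 weeks in mice 6 to 10, and at 0.170 to 2.09 CPM (median 0.732, n = 20) later. The ranges overlapped only through mouse 7 at 6 weeks. It fell by 1.73 ± 0.33 on the log2 scale (edgeR adjusted p = 8.35e-05). H2ac8 was at 1.76, 0.842, 1.00, 2.43 and 1.84 CPM and later at 0.085 to 1.21 CPM (median 0.592), with overlap, and fell by 1.39 ± 0.30 (adjusted p = 0.000376). H2ac4 was at 2.96 to 5.98 CPM at 6 weeks and 0.0567 to 2.88 CPM later, with no overlap, and fell by 1.49 ± 0.34 (adjusted p = 0.000677).

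H2bc21 went the other way. It was at 5.85, 8.14, 5.49, 6.73 and 5.00 CPM at 6 weeks and at 5.54 to 11.99 CPM (median 7.97) later, with overlapping ranges, and rose by 0.39 ± 0.12 (adjusted p = 0.0120). It also rose in batch 1 progressors and batch 2 nonprogressors, as given below, and was the only member called higher in any comparison with 6 weeks.

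Which libraries entered moved the count in batch 2. Leaving out the onset library of mouse 7, high in hair follicle genes, gave 40 called members (39 lower, all 25 kept, 34.7% of all genes called), with 12 of 13 H2A, 11 of 12 H3 and 6 of 9 H4 genes lower. Leaving out the pair low in Rn7sk gave 37 (36 lower, all 25 kept, 32.1% of all genes called), with family sums at -0.79 ± 0.20, -0.59 ± 0.15, -0.83 ± 0.24 and -0.56 ± 0.19. Without all 3 libraries, 42 of 48 were called (32.1% of all genes), 41 of them lower. Leaving out a whole mouse gave 11 calls without mouse 6, 12 without mouse 10 and 39 without mouse 7, and a term for each mouse gave 18.

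Batch 1 progressors had 7 of 47 members called over the same times, 6 lower and 1 higher, against 24.7% of all genes, 13.2% lower and 11.6% higher. The median was -0.35. H3c15, whose value is uncertain between copies, was at 73.4, 47.8, 70.7, 76.3 and 81.0 CPM at 6 weeks in mice 1 to 5 and at 29.7 to 82.7 CPM later (median 45.9, n = 20), with overlap, and fell by 0.60 ± 0.16 (adjusted p = 0.00382). H2ac15 fell by 0.87 ± 0.24 (adjusted p = 0.00567) from a mean of 18.2 to 10.2 CPM, and H2ac12 by 0.79 ± 0.24 (adjusted p = 0.0125) from 24.8 to 14.8 CPM. H2ac11, H3c10 and H3c2 also fell. H2bc21 was at 5.84, 4.4, 6.52, 6.76 and 7.16 CPM at 6 weeks and 5.31 to 13.05 CPM later, with overlap, and rose by 0.44 ± 0.15 (adjusted p = 0.0234). H2ac18 was at a mean of 61.0 CPM at 6 weeks and 70.1 CPM later in this batch, and at 11.9 and 7.31 CPM in batch 2. Without the library of mouse 2 that was high in hair follicle genes, 10 members were called (25.7% of all genes) and all 7 kept. The count was 2 without mouse 1 or 3, 3 without mouse 4, 4 without mouse 5 and 11 without mouse 2.

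Whether the progressors' change differed between the batches was tested directly. No member of 48 was called by edgeR (4.69% of all genes were), while 12 had an unadjusted p under 0.05 (21.2% of all genes), the median difference was -0.58, and DESeq2 called 2, H2ac8 and H3c3. H2ac8 was at -1.11 ± 0.41 (edgeR adjusted p = 0.0882). Without the 2 libraries high in hair follicle genes, edgeR called 2 (4.29% of all genes), H2ac18 and H3c3, both with the lower value in batch 2, and leaving out mouse 7 or 8 gave 3 or 1.

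Among the late times themselves no difference was found in the members. Against 7 weeks before onset, within batch 2, the mean of the later times gave 0 of 47 calls in edgeR, 0 at an unadjusted p under 0.05 (22.5% of all genes) and 0 in DESeq2, with 8.1% of all genes called and a median of -0.22. That median was -0.08 without the pair low in Rn7sk and -0.37 without the library high in hair follicle genes. An F test over 5, 3 and 1 weeks before onset and onset called 0 members in either batch (2 unadjusted in each, 0 in DESeq2), against 2.8% and 6.21% of all genes. Leaving out mouse 9 gave 1 call in batch 2, H3c14, a copy with uncertain counts.

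In batch 2 nonprogressors, 5 of 47 members were called at 14 against 6 weeks, 4 lower and 1 higher, while 29.1% of all genes were, 13.4% lower and 15.7% higher. H3c3 was at 1.97 to 3.00 CPM at 6 weeks (median 2.67, n = 7) and 0.52 to 1.74 CPM at 14 weeks (median 1.13, n = 6), with no overlap, and fell by 1.25 ± 0.42 (adjusted p = 0.0209). H2ac4 fell by 1.14 ± 0.42 (adjusted p = 0.0356) and H2ac8 by 0.97 ± 0.37 (adjusted p = 0.0442), and H2ac7 fell too. H2bc21 was at 4.28 to 6.83 CPM (median 6.09) and then 6.98 to 10.6 CPM (median 7.59), with no overlap, and rose by 0.50 ± 0.13 (adjusted p = 0.00391). The median over members was -0.53. The count was 10 (30.3% of all genes) without the pair low in Rn7sk, which are progressor samples and enter only through the filter, the scaling and the shared spread, and 2 with a term for each mouse. It was 3 without mouse 10, 2 without mouse 7 or 11, and 1 without mouse 8 or 9.

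In batch 1, 2 of 47 members were called in nonprogressors between 6 weeks and 10 to 22 weeks, against 12.1% of all genes and 6.13% lower. H2bc11 was at 2.38 to 4.35 CPM at 6 weeks (median 3.92, n = 4) and 0.46 to 3.32 CPM later (median 1.94), with overlap, and fell by 0.93 ± 0.28 (adjusted p = 0.0227). H2ac6 fell by 0.66 ± 0.22 (adjusted p = 0.0397), from a mean of 8.86 to 5.69 CPM. Both calls were lost without mouse 1, 2 or 4, and the count was 3 with a term for each mouse and 4 in DESeq2. NOR mice had 0 of 47 members called over the same ages (0.0946% of all genes, 3 members and 7.06% of all genes at an unadjusted p under 0.05, 0 in DESeq2), with 43 of 47 values below 0 and a median of -0.29. The change with age was not shown to differ between nonprogressors and NOR mice, with 0 of 47 called, 1 member and 5.89% of all genes at an unadjusted p under 0.05, 0 in DESeq2 and 0% of all genes called.

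**Figure D4:**
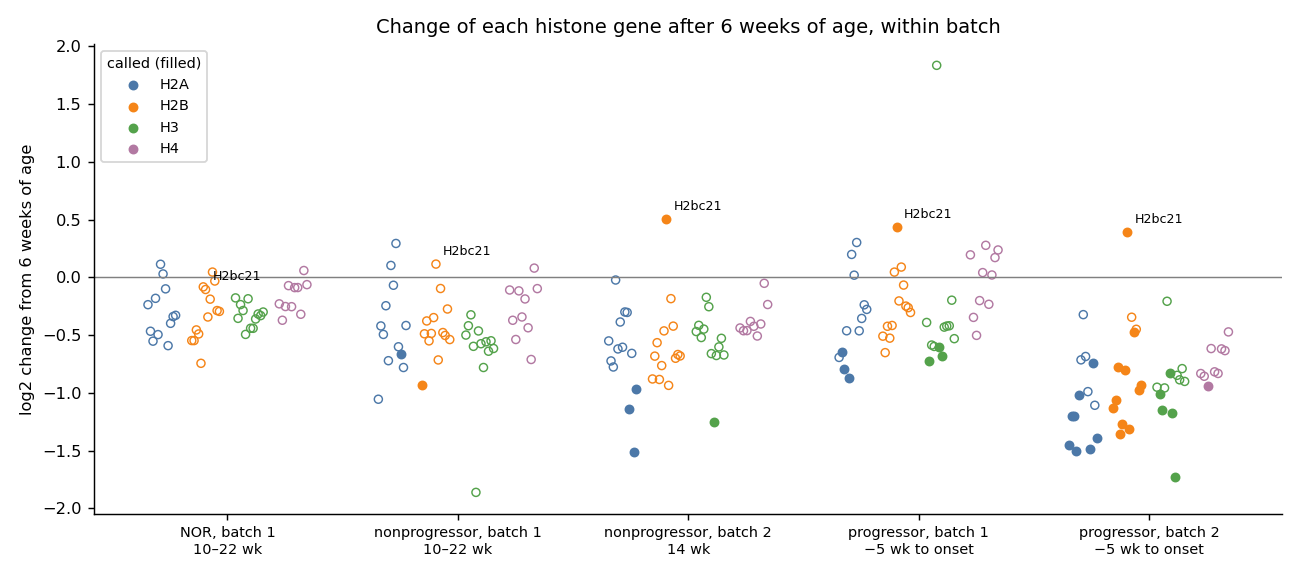
Log2 change of each member from 6 weeks of age (vertical axis) in each group and batch (horizontal axis), colored by family; filled points were called. Most values lie below 0 in every group, and H2bc21 lies above 0 and filled in 3 of the 5 comparisons. The filled points are most numerous in batch 2 progressors (25 of 47), where the share of all genes called was also highest (34.1%).

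Genes that share the members' setting were read beside them. In batch 2 progressors, 18 of 20 DNA replication genes fell (median -0.61) and all 20 mitosis genes fell (median -1.10), with Mki67 at -0.86 ± 0.17. Of 11 replication-independent histone genes 4 fell (median -0.25), with H3f3b at -0.04, and of 12 genes for factors that process or bind histone mRNA 6 fell (median -0.12). In batch 1 progressors, 14 of 20 DNA replication genes and 17 of 20 mitosis genes fell, and in NOR mice none of either list was called. Cell type markers moved over the same comparison. All 10 fibroblast genes fell in batch 2 progressors (median -1.49), and their sum was at 39325 to 68991 CPM at 6 weeks and 5975 to 35933 CPM later, with no overlap. Of 10 T cell genes 8 rose, from a sum of 6.17 to 15.04 CPM to 10.1 to 90.7 CPM, and of 10 macrophage genes 1 rose and 1 fell, at 6229 to 8658 and 6001 to 10127 CPM. Of the 10 hair follicle and epidermis genes tested 5 rose, and all 12 of the list had sums of 1.12 to 30.6 CPM and then 1.97 to 5894 CPM, and 0 of 8 erythroid genes were called. No marker was at 0 in every sample. The part of these cell types in the members' change was not tested.

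Transcript length moved with the members as well. In batch 2 progressors, 19 of 31 members of at most 700 bases and 6 of 16 longer ones were called, and other short coding genes had a median of -0.16. Across the 46 batch 2 libraries the deviation of short members from the batch median followed that of other short coding genes (Pearson r = 0.858). Across the 74 batch 1 libraries r was 0.518. The pair low in Rn7sk had the lowest batch 2 values, -2.28 and -2.77 for short members and -1.06 and -1.71 for other short genes. All other batch 2 libraries had other short genes at -0.326 to 0.404. The r was not computed without the pair, so its size cannot be compared between the batches. These are descriptions over libraries that share mice, and their part in the change after 6 weeks was not tested.

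The ratio of summed members to Mki67 was then followed over time. In batch 1 progressors the mean ratio was 6.84 at 6 weeks and 10.3, 10.1, 8.38 and 9.80 later. In batch 2 progressors it was 5.02 at 6 weeks, 6.09 at 7 weeks before onset, and then 4.97, 5.85, 4.89 and 5.03. The last 2 means were 5.67 and 6.05 (n = 4 each) without the pair low in Rn7sk, whose own ratios were 1.79 and 0.943. Nonprogressors were at 8.05 at 6 weeks and 8.05 to 11.3 later in batch 1, and at 4.56 and 5.54 in batch 2, and NOR mice at 7.77 and 6.88 to 14.1. The 6.88, at 18 weeks, was 8.06 without the library dominated by ribosomal RNA (n = 3). Within mice, the later ratio was below the 6-week ratio in 0 of 5 batch 1 and 2 of 5 batch 2 progressors, 0 of 4 and 1 of 6 nonprogressors, and 0 of 4 NOR mice. Without the pair low in Rn7sk it was below in 1 of 5 batch 2 progressors. The batch difference remained in this ratio, with a median of 9.10 in batch 1 and 5.20 in batch 2 over all samples, which are of unlike groups and times.

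**Figure D5:**
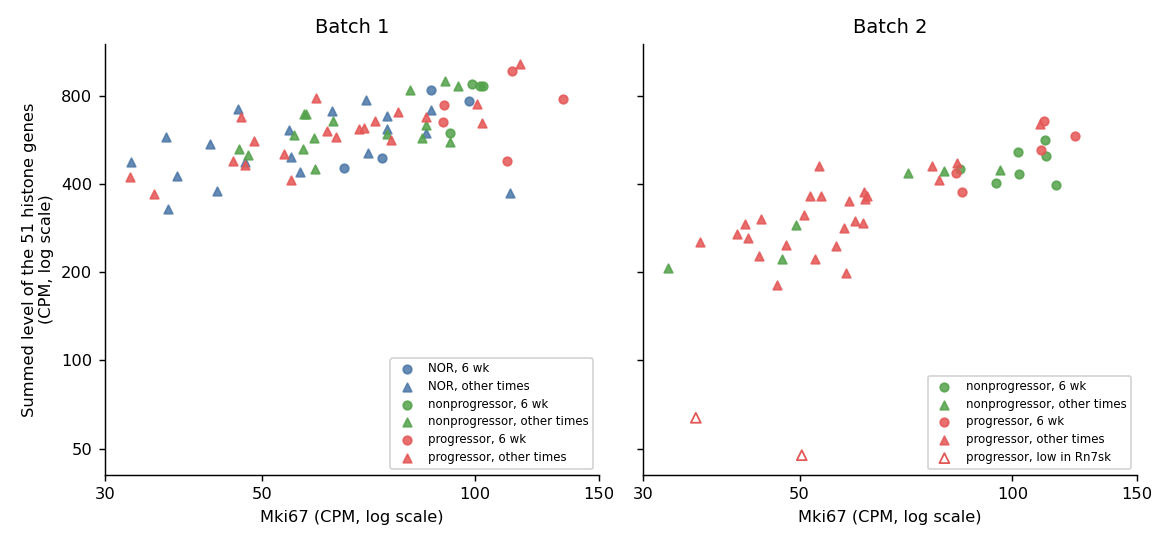
Summed level of the 51 genes against Mki67 in each sample (both axes CPM, log scale), by batch, with circles for 6 weeks and triangles for other times. In both batches samples with more Mki67 have more histone mRNA, batch 2 lies lower at the same Mki67, and the open triangles, at 47.5 and 63.7 CPM, are the libraries low in Rn7sk.

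The slope of each member on Mki67 (log2 CPM on log2 CPM) was first tested across mice at 6 weeks, with group as a term and Mki67 left out of the genes tested. By edgeR, 0 of 47 members were called in batch 1 (18 at an unadjusted p under 0.05, 0 in DESeq2, 0% of all genes called and 7.4% unadjusted) and 0 of 48 in batch 2 (28 unadjusted, 3 in DESeq2, 0% of all genes called and 2.65% unadjusted). The slope was positive in 46 of 47 and 45 of 48, with a median of 1.20 and 1.01, against 0.01 and 0.00 over all genes. With simulated data of the same size, this test in batch 2 recovered 0% of 200 genes given a slope of 1 among 20396, so that a count of 0 there says little. For the member of each family with most counts over both batches together, H2ac18, H2bc4, H3c15 and H4c8, a permutation test with 100000 resamples was run in each batch, 8 relations in all. H3c15 had a Pearson r of 0.665 in batch 1 (p = 0.0130, adjusted p = 0.104) and 0.637 in batch 2 (p = 0.0268, adjusted p = 0.107), with a Spearman rho of 0.538 (p = 0.0617) and 0.622 (p = 0.0350). Without the 2 mice farthest from the median of Mki67 its r was 0.364 and 0.424, over a narrower range of Mki67. The other 3 had r of 0.208, 0.297 and 0.252 in batch 1 and 0.167, -0.123 and 0.537 in batch 2, and no relation passed the adjusted threshold.

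Over all samples of a batch, with a term for each group and time, the slope was called in 39 of 47 members in batch 1 and 38 of 48 in batch 2, all positive. Over all genes 5.29% and 6.10% were called, and 3.23% and 4.12% with a positive slope. The median slope of the members was 0.80 and 1.12. Called members were 10 of 12 and 11 of 13 for H2A, 11 of 13 and 10 of 13 for H2B, 11 of 12 in both for H3, and 7 of 10 and 6 of 10 for H4. A term for each mouse gave 39 and 34, leaving out the library high in hair follicle genes gave 35 and 27, and leaving out the pair low in Rn7sk gave 41 in batch 2. The smallest p was that of H3c15 in batch 1 (slope 0.69 ± 0.06, adjusted p = 6.29e-13) and H2bc9 in batch 2 (1.27 ± 0.17, adjusted p = 2.32e-06). Members not called in either batch were H4c9, H2bc6, H4c6, H2ac21, H3c14 and H2bc21, whose slope was -0.06 (adjusted p = 0.811) in batch 1 and -0.11 (adjusted p = 0.564) in batch 2. In the same fits all 19 mitosis genes were called in both batches, 17 and 16 of 20 DNA replication genes, 2 and 5 of 11 replication-independent histone genes, and 1 and 0 of 12 histone mRNA factors. Cell type markers were read in the same fits, in which 5.29% and 6.10% of all genes were called. The slope was called, and positive, in 0 and 4 of 10 macrophage genes, 1 and 5 of 12 hair follicle and epidermis genes, 2 and 1 of 10 fibroblast genes and 1 and 0 of 10 B cell genes. All 10 fibroblast genes had slopes above 0 in both batches (median 0.40 and 0.26). Of the T cell, endothelial, erythroid and neutrophil precursor genes tested, 0 were called. The part of these cells in the members' slopes was not tested.

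By correlation over all dated samples, the members most like Mki67 were H3c15 (Pearson r = 0.858), H3c8 (0.755) and H3c11 (0.725) in batch 1 (n = 68) and H3c3 (0.863), H2bc14 (0.851) and H2bc15 (0.833) in batch 2 (n = 46). Without the pair low in Rn7sk the last 3 were at 0.867, 0.898 and 0.876 (n = 44). The median r was 0.366 over members against -0.03 over all genes in batch 1 and 0.714 against -0.04 in batch 2. These samples share mice, times and library depth, and the values are descriptions.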

How the data were processed

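Bulk RNA sequencing of 120 scaffolds was analysed from 2 deposited tables, 1 for each sequencing batch. The authors deposited expected counts (estimated counts per gene, from RSEM) as whole numbers, not normalized. The submitters' processing notes name cutadapt, STAR, RSEM, FastQC, MultiQC and GRCm38, and their versions, the annotation release and the read length are not given in the sources used here. Estimated counts divide reads shared by near-identical genes, so a value for 1 copy depends on that division.

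The 55487 genes named in both tables were used, of 55492 and 55491. Counts were scaled by TMM and written as CPM. Transcripts, coordinates and stem-loops came from GENCODE M21 (51 of 51 members matched), and promoters from RefSeq. Stem-loops were searched as the histone stem-loop consensus of 16 bases downstream of the coding part.

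Each comparison was fitted on the whole table with edgeR 4.0.16 (filterByExpr, TMM, robust quasi-likelihood F tests) in R 4.3.3, with Benjamini-Hochberg adjustment over all genes tested and a threshold of 0.05, and members were read from it. Group and time comparisons used all dated samples of a batch (68 and 46), and the batch difference and the strain comparison 1 summed library per mouse. Family and copy sums were fitted in the same way and carry no p. Python 3.11.15 with scipy 1.17.1 gave permutation tests, two-sided.

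Genes named are, in each comparison, the 3 called members with the smallest p in each direction, the 2 with the highest mean CPM of each family and batch, the members with the largest batch difference in each direction, and H2ac8. Members outside this rule (H2bc12, H2bc21 in the slope fits, the copies and the head-to-head pairs) were chosen after their values were seen. The members, the gene lists and this rule were chosen with earlier results of these data known.

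Alternatives were edgeR with DESeq2's size factors, DESeq2 1.42.0, no filter on low counts, a term for each mouse, leaving out each mouse (94 fits), and those named in the text. Leaving out libraries low in Rn7sk or with over 1000 CPM of hair follicle genes was added after seeing the data. Sample numbers pair across times because they name the same animal. Deviations from group means correlated with a median r of 0.02 over 132 same-mouse pairs in batch 1, 40 of them above 0.1, and of -0.03 over 76 pairs in batch 2, 21 above 0.1. No libraries held identical counts (highest r 0.989). Tested on simulated data, in which 200 genes were given a log2 change of 1, the fits recovered 52.5% (progressors against nonprogressors at 6 weeks in batch 1, 21131 genes), 67.5% (late progressors in batch 2, 21808 genes) and 84.0% (batch difference, 23514 genes). Nonprogressor samples whose labels give days since implantation, 6 in all, entered no fit.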

Additional observations from a re-analysis of the deposited data

Results flagged for a closer look

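In groups of 4 to 10 samples, 12 of 138 combinations of a summed level, group and time had a highest or lowest sample far from the rest by Dixon's criterion, where chance flags about 1 in 20 groups. Sums share genes, so these are not independent.

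In batch 1 nonprogressors, mouse 1 at 6 weeks was far below the other 3 mice, with 598 CPM over all members, 136 CPM of H2A and 245 CPM of H3. Mouse 3 was far above the others at 18 weeks, with 840 CPM over all members, 200.3 CPM of H2A and 345 CPM of H3, and at 14 weeks for H3 alone, at 334 CPM. Mouse 2 was low at 10 weeks for H4, at 113.6 CPM.

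In batch 1 progressors, mouse 2 had the highest H3 sum at 3 weeks before onset, 430.3 CPM, in the library that also had 5191 CPM of hair follicle and epidermis genes. The same mouse had the lowest H2B sum at 5 weeks before onset, 91.0 CPM. In batch 2 progressors, Mki67 was far above the other mice in mouse 7 at onset, at 109 CPM, in the library with 5894 CPM of hair follicle genes, and in mouse 6 at 1 week before onset, at 78.6 CPM. Causes were not tested.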

How the results depend on the processing

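With edgeR run on DESeq2's size factors every count of called members stayed within 1.5 times the reported one. The batch difference kept 43 calls or close to it, 43 to 44 without single mice, 43 without the pair low in Rn7sk and 30 at 6 weeks alone. Other counts moved. For nonprogressors against NOR, DESeq2 gave 7, 6 weeks alone 0 and leaving out single mice 0 to 1. For batch 1 nonprogressors over age, DESeq2 gave 4, no filter on low counts 1 and single mice 0 to 3. For batch 2 nonprogressors, no filter gave 2, the pair low in Rn7sk left out 10 and single mice 1 to 5. For late against 6-week progressors, no filter gave 4 and single mice 2 to 11 in batch 1, and in batch 2 single mice gave 11 to 39, the hair follicle library left out 40, and that library and the pair low in Rn7sk left out 42. The F test over late times in batch 2 gave 0 to 1 without single mice. The difference between the batches' changes gave 2 in DESeq2, 2 without the hair follicle libraries and 0 to 3 without single mice. The slope on Mki67 at 6 weeks gave 39 with all samples of batch 1, 39 with a term for each mouse and 35 without the hair follicle library, and in batch 2 DESeq2 gave 3, all samples 38, a term for each mouse 34, the pair low in Rn7sk left out 41 and the hair follicle library left out 27. Causes were not tested.

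With the replicate block, a term for each mouse, batch 2 nonprogressors had 2 called members in place of 5. The block changed no other count by over 1.5 times, with 18 in batch 2 progressors, 6 in batch 1 progressors and 3 in batch 1 nonprogressors. The other values followed were named members, medians over members set against the family sums, and correlations of single members with Mki67. Under an alternative, 303 of these values were counted as the same. That meant still called for a named member, within the members' median error for a median, and only of unchanged sign for a correlation. Of the named members' values 41 were no longer called, 1 median moved beyond that error, and 0 named members or correlations changed sign.

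Depth limits the least abundant members, since 3 counts correspond to 0.102 CPM in the median batch 1 library and, after TMM scaling, to 3.03 CPM in the NOR library dominated by ribosomal RNA. Values of single near-identical copies rest on how the authors' estimation divided shared reads, which could not be varied here. Intervals and errors cover the spread between these samples, and biopsies of 1 mouse are not independent.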

Other observations

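The 6 nonprogressor samples of batch 1 that are labelled by days after implantation entered no test, but are among the 74 batch 1 libraries of the levels described above. Their summed members were at 626 and 724 CPM at day 31, 665 and 675 CPM at day 38, and 657 and 740 CPM at day 108. Mki67 was at 51.6 and 62.0, 58.3 and 61.1, and 51.2 and 57.7 CPM. H2ac18 was at 64.4 and 65.3, 63.9 and 65.6, and 68.3 and 70.6 CPM, and H2ac19 was listed at 0 in all 6.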
